A study of Mus musculus with 8 samples.

Results

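The antigen presentation genes of the major histocompatibility complex (MHC) were taken as every gene whose symbol starts with H2-, the prefix of the mouse MHC genes, together with B2m, Tap1, Tap2, Tapbp, Psmb8, Psmb9, Psmb10, Nlrc5, Ciita, Cd74 and Erap1. The selection held 56 of the 55414 genes in the count table, 45 by prefix and 11 by name. By role they were 2 classical class I heavy chains, 28 class Ib heavy chains (pseudogenes included), 8 class I partners and peptide supply genes, 5 class II chains, 6 class II loading genes, 2 regulators and 5 other H2- genes. Of the 56 members, 43 passed the filter on low counts and 13 did not. Of those 13, 10 had 0 counts in all 8 libraries, and these included the class II chain gene H2-Ea, which is silent in several inbred mouse haplotypes.

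The libraries were made from mouse brain tissue in a model of supratentorial ependymoma, a brain tumor driven by the ZFTA-RELA fusion. There were 4 groups of 2 libraries: naive brain from vehicle-treated mice, tumor from vehicle-treated mice, naive brain from mice given MRX-2843, and tumor from mice given MRX-2843, a small molecule that blocks the kinases MERTK and FLT3. Doses of 50 mg/kg were given by oral gavage once a day for 5 days to mice with tumors seen on MRI, and tissue was taken 1 h after the last one. All 8 libraries, naive brain included, carry the fusion as their genotype label, and strain, age and the way the fusion was introduced are not given in the sources used here. The column names of the counts call the 2 libraries of a group Duplicate 1 and Duplicate 2, and the sample titles call them replicates. Whether the paired libraries of a group come from separate animals is not said, so p-values measure the spread between these libraries, which may be technical.

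Class I molecules, made of a heavy chain and B2m (beta-2 microglobulin), display peptides cut in the cytosol by the proteasome and carried into the endoplasmic reticulum by the Tap1 and Tap2 transporter. Class II molecules, made of an alpha and a beta chain, display peptides from endocytosed proteins and are found mainly on macrophages, dendritic cells and B cells, while most cells of the healthy brain carry little of either class. Interferon gamma raises both sets, class I genes with the help of the transactivator Nlrc5 and class II genes through the transactivator Ciita, which acts at a conserved block of promoter elements that includes the Y box.

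Promoter windows from 250 bases before to 50 after the transcription start (RefSeq, GRCm38.p6) were matched by symbol for 39 of the 56 members, and 6 are printed to show which of 3 known elements the class I and class II genes carry. Capitals mark matches, on either strand, to an interferon-response element (GAA or GAAA, then 2 bases of any kind, then GAAA), a kappa-B element (GGGA, then 4 bases of any kind, then CC) or a Y box (CTGATTGG). Matches of a palindromic kappa-B element on both strands overlap each other. The windows are H2-K1 at chr17:34000298-34000597 on the minus strand, H2-D1 at chr17:35262844-35263143 on the plus strand, B2m at chr2:122147437-122147736 on the plus strand, H2-Aa at chr17:34287774-34288073 on the minus strand, H2-Eb1 at chr17:34305617-34305916 on the plus strand and H2-Q2 at chr17:35342057-35342356 on the plus strand.
H2-K1: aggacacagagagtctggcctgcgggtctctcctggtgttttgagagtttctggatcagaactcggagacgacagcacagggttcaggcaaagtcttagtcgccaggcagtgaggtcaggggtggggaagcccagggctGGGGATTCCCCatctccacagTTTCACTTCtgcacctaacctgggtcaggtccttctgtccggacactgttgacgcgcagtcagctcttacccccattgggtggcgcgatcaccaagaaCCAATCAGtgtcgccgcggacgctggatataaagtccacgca
H2-D1: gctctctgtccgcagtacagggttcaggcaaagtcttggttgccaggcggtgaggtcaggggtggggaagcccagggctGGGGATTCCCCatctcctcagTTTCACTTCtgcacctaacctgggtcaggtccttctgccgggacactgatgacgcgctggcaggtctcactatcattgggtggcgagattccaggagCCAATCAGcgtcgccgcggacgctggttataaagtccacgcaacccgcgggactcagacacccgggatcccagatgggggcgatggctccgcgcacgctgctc
B2m: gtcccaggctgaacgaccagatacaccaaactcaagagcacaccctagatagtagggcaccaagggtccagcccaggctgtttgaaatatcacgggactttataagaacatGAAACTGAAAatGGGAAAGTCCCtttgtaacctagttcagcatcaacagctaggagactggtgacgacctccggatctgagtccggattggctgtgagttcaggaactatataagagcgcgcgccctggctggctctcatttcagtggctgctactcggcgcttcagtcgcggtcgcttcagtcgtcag
H2-Aa: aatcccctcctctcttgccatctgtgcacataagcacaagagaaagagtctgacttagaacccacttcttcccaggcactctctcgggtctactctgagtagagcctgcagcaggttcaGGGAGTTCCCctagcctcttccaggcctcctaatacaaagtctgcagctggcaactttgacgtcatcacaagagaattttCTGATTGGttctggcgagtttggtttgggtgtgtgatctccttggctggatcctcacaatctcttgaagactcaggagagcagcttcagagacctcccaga
H2-Eb1: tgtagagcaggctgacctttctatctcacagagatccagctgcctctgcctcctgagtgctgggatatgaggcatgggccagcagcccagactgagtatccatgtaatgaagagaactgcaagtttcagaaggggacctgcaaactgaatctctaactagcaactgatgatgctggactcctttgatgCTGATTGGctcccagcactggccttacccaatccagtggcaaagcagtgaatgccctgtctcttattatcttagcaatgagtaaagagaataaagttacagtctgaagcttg
H2-Q2: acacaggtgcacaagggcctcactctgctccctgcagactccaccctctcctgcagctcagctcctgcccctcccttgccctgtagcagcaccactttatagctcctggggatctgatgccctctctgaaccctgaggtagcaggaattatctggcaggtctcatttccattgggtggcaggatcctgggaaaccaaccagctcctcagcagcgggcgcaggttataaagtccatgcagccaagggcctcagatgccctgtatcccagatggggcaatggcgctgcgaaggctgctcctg
The classical genes H2-K1 and H2-D1 held the same order of elements, a kappa-B match, then an interferon-response match, then a Y box. B2m held an interferon-response and a kappa-B match side by side and no match to the Y box letters. The class II chains H2-Aa, H2-Eb1 and H2-Eb2 each held a Y box, and 0 of these 3 windows held an interferon-response match. The H2-Q2 window held none of the 3 sets of letters.

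Over the 39 matched members, 12 windows (30.8%) held an interferon-response match, against 10.4% of 27025 promoters in the table. A kappa-B match was present in 12 (30.8%) against 20.5% of all promoters, and a Y box in 20 (51.3%) against 4.31%. The Y box windows included those of H2-M1, H2-M9, H2-M11, H2-M10.1, H2-M10.3, H2-M10.4, H2-M10.5 and H2-M10.6, which did not pass the filter on low counts. All 3 were present in 4 members, H2-K1, H2-D1, H2-Q6 and H2-Q7, and in 22 of all promoters (0.0814%). These are letter matches within 1 window per gene, and paralogs in the set share ancestry, so the members are not independent.

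Library totals ran from 51150569 to 112938462 counts. On a log2 scale, over genes above a low cut on mean expression, the libraries labelled MRX-2843 tumor correlated at 0.968 to 0.976 with naive brain libraries. With vehicle tumor they correlated at 0.664 to 0.668. Of 4 tumor markers, Zfta was at a mean of 55.6 CPM (counts scaled to library size) in them, 289 in vehicle tumor, 48.6 in vehicle naive brain and 33.1 in MRX-2843 naive brain, and Ccnd1 at 15.5, 253, 20.1 and 12.3. Zfta and Ccnd1 were higher in them than in MRX-2843 naive brain (log2 fold changes 0.75, adjusted p = 6.4e-07, and 0.33, adjusted p = 0.014), while Rela was not called (adjusted p = 0.097). The fourth marker, L1cam, was lower in vehicle tumor (41.1 CPM) than in vehicle naive brain (133 CPM, log2 fold change -1.69). It was at 143 CPM in MRX-2843 naive brain and 126 in the libraries labelled MRX-2843 tumor, and was not called between these (adjusted p = 0.073). In bulk RNA this does not show whether tumor cells lack L1cam. By correlation the libraries labelled MRX-2843 tumor stood closer to naive brain than to vehicle tumor, against their tumor label. Xist ran from 25657 to 56676 counts under MRX-2843 and from 36 to 193 under vehicle, and the Y-linked Ddx3y had 0 and 2168 to 6717. An unexplained number in the column names is 909 for the MRX-2843 libraries and 914 or 915 for vehicle. Treatment, the sex-linked difference and that number cannot be told apart. In bulk RNA, fewer cells of a type and less RNA per cell cannot be told apart either.

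Vehicle tumor was the group in which nearly the whole presentation pathway was high. The 56 members together took 1.74% and 1.71% of all counts in vehicle tumor, 0.0311% and 0.0308% in vehicle naive brain, 0.0445% and 0.0426% in MRX-2843 naive brain, with 0.0579% and 0.0601% in the libraries labelled MRX-2843 tumor. The replicates of each group differed far less than the groups, and the 4 ranges did not overlap.

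In vehicle tumor against vehicle naive brain, 37 of the 43 members tested were higher and 2 were lower by edgeR's quasi-likelihood test, called where the p adjusted over all 24356 genes tested (Benjamini-Hochberg) was below 0.05. Of all genes tested, 29.3% were higher and 30.8% lower in that comparison. The median log2 fold change of the members was 4.83, or 4.52 with the 1 member that had 0 counts in vehicle naive brain set at its bound (3 counts per library), and that of all genes was -0.03. A total of 41 members passed the count filter without the vehicle tumor libraries, and of these 36 were higher and 2 lower. The other 2, H2-Eb2 and H2-M2, passed only through a group in which they were high.

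In the libraries labelled MRX-2843 tumor against vehicle tumor, 35 members were lower and 2 were higher, with 29.8% of all genes lower and 30.6% higher. The median log2 fold change was -3.81 over the members and 0.03 over all genes. This comparison shares the vehicle tumor libraries with the first.

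Smaller differences separated the 3 groups with low levels. In MRX-2843 naive brain against vehicle naive brain, 23 members were higher and 0 were lower, with 9.78% of all genes higher and 11.7% lower, and the median log2 fold change of the members was 0.49. In the libraries labelled MRX-2843 tumor against MRX-2843 naive brain, 16 members were higher and 5 lower, with 12.4% of all genes higher and 11.9% lower, and the median was 0.47. The interaction of treatment and tissue, which asks whether the tumor against naive difference differs between treatments, was lower than 0 in 36 members and higher in 1, with 25.3% of all genes lower and 26.3% higher. Fitted with only the groups compared, 12 members instead of 23 were called in MRX-2843 against vehicle naive brain, and Nlrc5 (adjusted p = 0.063), H2-Q4 (0.086) and Tap1 (0.11) were among those lost. Between the MRX-2843 groups, Psmb9 (adjusted p = 0.069) and Tap1 (0.083) lost their calls in that fit.

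**Figure D1:**
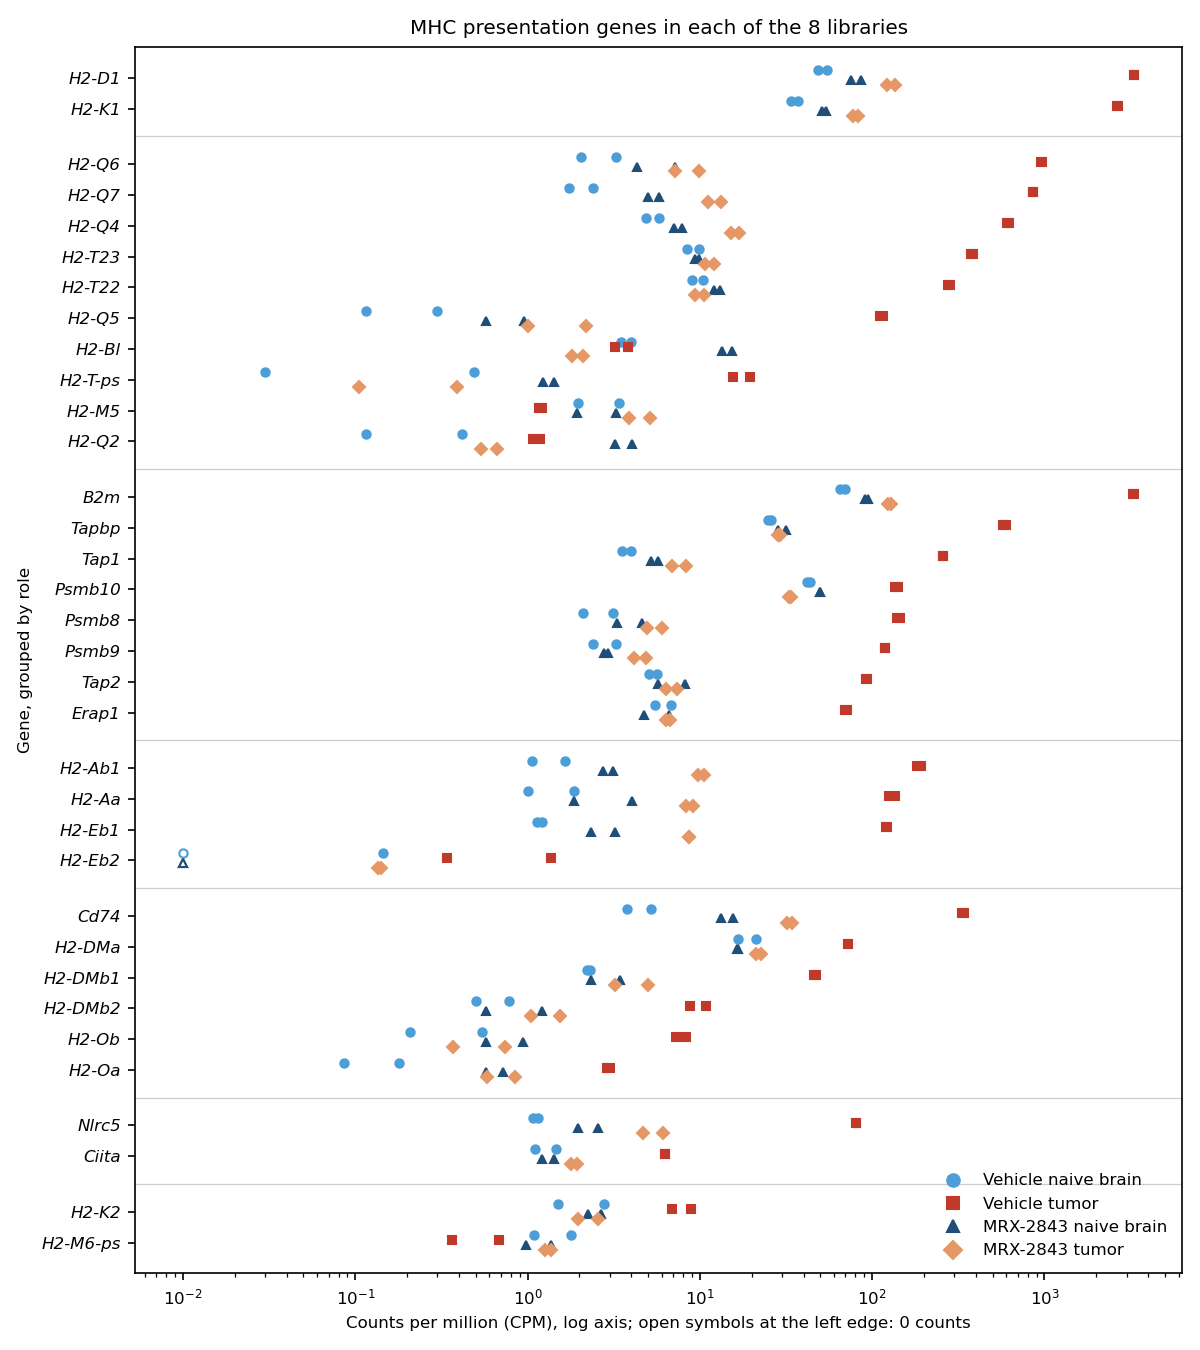
CPM (log axis) of the members described in full, grouped by role, with 1 symbol per library and open symbols for 0 counts. The vehicle tumor squares stand apart at the right for most genes (H2-D1 at 3325 and 3312 CPM), while H2-Bl, H2-M5, H2-Q2 and H2-M6-ps depart from that order.

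The classical class I heavy chains, which present peptides to CD8 T cells, were among the most abundant members in every group. H2-K1 was at 37.2 and 33.8 CPM in vehicle naive brain, 2638 and 2663 in vehicle tumor, 54.3 and 51.1 in MRX-2843 naive brain, with 77.4 and 83 in the libraries labelled MRX-2843 tumor. The 4 groups did not overlap, and vehicle tumor was far above the rest. In vehicle tumor H2-K1 was 74.6-fold higher than in vehicle naive brain (log2 fold change 6.22 ± 0.07 SE, adjusted p = 1.2e-17). The libraries labelled MRX-2843 tumor were 33.1-fold lower than vehicle tumor (-5.05 ± 0.06, adjusted p = 4.6e-17) and 1.52-fold higher than MRX-2843 naive brain (0.61 ± 0.06, adjusted p = 1.8e-06). MRX-2843 naive brain was 1.48-fold above vehicle naive brain (0.57 ± 0.06, adjusted p = 3.6e-06).

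H2-D1, the second classical heavy chain, followed the same order, at 48.2 and 54.8, 3325 and 3312, 86.4 and 75.6, and 122 and 135 CPM in naive brain and tumor under vehicle, MRX-2843 naive brain and the libraries labelled MRX-2843 tumor. It rose by 6.01 ± 0.08 on the log2 scale in vehicle tumor, and was 0.65 ± 0.07 higher in naive brain under MRX-2843 than under vehicle (adjusted p = 8.9e-06). Per kilobase of exon, H2-K1 stood at 0.678 and 0.54 of H2-D1 in vehicle naive brain and at 0.696 and 0.706 in vehicle tumor. Over the 8 libraries that ratio stayed between 0.54 and 0.706.

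Class Ib heavy chains are less polymorphic relatives of the classical chains, and several of them are read by natural killer (NK) or unconventional T cells. They share sequence, and the treatment of reads that match several places is not stated, so levels of single genes are uncertain: 31.5% of the 100-base stretches of H2-T22 transcripts, 28.1% of those of H2-T10 and 12 to 14.1% of those of H2-Q4, H2-Q5, H2-Q6 and H2-Q7 also occur in another gene of GENCODE M21. Of 28 such genes, 18 passed the filter, and 15 were higher and 1 lower in vehicle tumor than in vehicle naive brain.

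The Qa-2 genes H2-Q6 and H2-Q7 showed a steeper rise than the classical genes. H2-Q6 was at 3.26 and 2.04 CPM in vehicle naive brain, 962 and 960 in vehicle tumor, 7.18 and 4.29 in MRX-2843 naive brain, with 7.17 and 9.83 in the libraries labelled MRX-2843 tumor. H2-Q7 was at 1.74 and 2.4, 853 and 853, 5.76 and 5, and 11.1 and 13.3 CPM in the same order. The rise in vehicle tumor was 8.50 ± 0.22 on the log2 scale (362-fold, adjusted p = 4.4e-14) for H2-Q6 and 8.69 ± 0.12 (413-fold, adjusted p = 1.1e-16) for H2-Q7. As a share of all class I heavy chain counts, H2-Q6 went from 2.5% and 1.54% in vehicle naive brain to 10.2% and 10.1% in vehicle tumor, and H2-Q7 from 1.33% and 1.81% to 9.01% in both libraries, while H2-D1 held 36.9% and 41.4% against 35.1% and 35%.

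H2-Q5, annotated as a polymorphic pseudogene, went from 0.115 and 0.298 CPM in vehicle naive brain to 116 and 111 in vehicle tumor, a rise of 9.10 ± 0.31 on the log2 scale that was 8.56 without vehicle naive brain replicate 1 and 9.93 without replicate 2. H2-Q4 was at 5.83 and 4.87 CPM in vehicle naive brain, 607 and 623 in vehicle tumor, 7.87 and 7.1 in MRX-2843 naive brain, with 15.1 and 16.8 in the libraries labelled MRX-2843 tumor, where it was 1.11 ± 0.09 above MRX-2843 naive brain on the log2 scale (adjusted p = 4.7e-07). The slight excess of H2-Q5 and H2-Q6 over MRX-2843 naive brain in the same libraries rested on single libraries. H2-Q5 (0.97 ± 0.32, adjusted p = 0.04) lost the call without MRX-2843 tumor replicate 2 (0.29, adjusted p = 0.6) or MRX-2843 naive brain replicate 1 (0.75, adjusted p = 0.11). H2-Q6 (0.64 ± 0.20, adjusted p = 0.031) had overlapping libraries and lost the call without MRX-2843 naive brain replicate 2 (0.25, adjusted p = 0.39) or MRX-2843 tumor replicate 2 (0.41, adjusted p = 0.21). In MRX-2843 against vehicle naive brain, H2-Q5 (1.99 ± 0.47, adjusted p = 0.0065) lost the call without vehicle naive brain replicate 1 (adjusted p = 0.056) or MRX-2843 naive brain replicate 2 (adjusted p = 0.11), and was 2.82 without vehicle naive brain replicate 2.

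H2-T23 encodes Qa-1, which shows leader peptides of other class I chains to the NK receptor of Klrc1 and Klrd1. It was at 9.86 and 8.4 CPM in vehicle naive brain, against 385 and 373 in vehicle tumor (5.37 ± 0.09 on the log2 scale, adjusted p = 5.3e-16). It was at 9.43 and 9.93 CPM in MRX-2843 naive brain, with 12 and 10.7 in the libraries labelled MRX-2843 tumor. The difference between the last pair of groups was 0.22 ± 0.09 and did not pass the threshold (adjusted p = 0.09). H2-T22, a ligand of some gamma delta T cells, was at 10.4 and 8.98, 282 and 277, 12 and 13.1, and 9.32 and 10.5 CPM in the 4 groups. Its small excess in MRX-2843 over vehicle naive brain (0.38 ± 0.09, adjusted p = 0.0068) was lost without vehicle naive brain replicate 2 (adjusted p = 0.11) or MRX-2843 naive brain replicate 2 (adjusted p = 0.068). Between the MRX-2843 groups H2-T22 was lower in the libraries labelled tumor (-0.35 ± 0.09, adjusted p = 0.011), a call lost without MRX-2843 naive brain replicate 2 (adjusted p = 0.097) or MRX-2843 tumor replicate 1 (adjusted p = 0.1).

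A few class Ib genes left the common order, and H2-Bl and H2-Q2 among them were highest in MRX-2843 naive brain. H2-Bl, a class Ib gene annotated as a polymorphic pseudogene at chr17:36080115-36084223, was at 3.5 and 4.01 CPM in vehicle naive brain, 3.85 and 3.2 in vehicle tumor, 13.4 and 15.4 in MRX-2843 naive brain, with 2.11 and 1.82 in the libraries labelled MRX-2843 tumor. Only 0.694% of its 100-base stretches occur elsewhere. It was thus 3.85-fold higher in naive brain under MRX-2843 than under vehicle (1.94 ± 0.22, adjusted p = 1.1e-05) and 7.35-fold lower in the libraries labelled MRX-2843 tumor than in MRX-2843 naive brain (-2.88 ± 0.23, adjusted p = 5.1e-07), while the vehicle groups overlapped (-0.09 ± 0.22, adjusted p = 0.74).

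H2-Q2, the gene whose printed promoter held none of the 3 elements, was at 0.115 and 0.417, 1.08 and 1.18, 3.2 and 4.06, and 0.668 and 0.54 CPM in naive brain and tumor under vehicle, MRX-2843 naive brain and the libraries labelled MRX-2843 tumor. MRX-2843 naive brain was again highest, 13.6-fold above vehicle naive brain (3.77 ± 0.59, adjusted p = 0.00025, with 3.12 without vehicle naive brain replicate 1 and 4.96 without replicate 2), and the libraries labelled MRX-2843 tumor were 6.01-fold below it (-2.59 ± 0.55, adjusted p = 0.0028). Its excess in vehicle tumor over vehicle naive brain (2.08 ± 0.57, adjusted p = 0.0052) was 1.43 without vehicle naive brain replicate 1 (adjusted p = 0.051) and 3.28 without replicate 2. The pseudogene H2-T-ps shared the difference between the MRX-2843 groups, with 1.23 and 1.43 CPM in naive brain and 0.105 and 0.388 in the libraries labelled tumor (-2.42 ± 0.63, adjusted p = 0.011). That call was lost without MRX-2843 tumor replicate 1 (-1.79, adjusted p = 0.06) and in DESeq2's test (adjusted p = 0.14), and the value was -3.64 without replicate 2. Unlike H2-Bl, it was highest in vehicle tumor, at 19.5 and 15.5 CPM. The excess of H2-T-ps in MRX-2843 over vehicle naive brain (2.35 ± 0.61, adjusted p = 0.012) rested on 34 and 2 counts in vehicle naive brain. It was 5.41 without vehicle naive brain replicate 1 and 1.46 without replicate 2, and was not called in DESeq2's test (adjusted p = 0.17).

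H2-M5 was the class Ib gene called lower in vehicle tumor than in vehicle naive brain, at 1.16 and 1.22 CPM, against 1.97 and 3.38 in vehicle naive brain, 3.28 and 1.93 in MRX-2843 naive brain, with 5.13 and 3.86 in the libraries labelled MRX-2843 tumor. It was lower in vehicle tumor than in vehicle naive brain (log2 fold change -1.17 ± 0.38, adjusted p = 0.016), a call lost without vehicle naive brain replicate 2 (-0.72, adjusted p = 0.2) and with scaling by library totals (-0.91, adjusted p = 0.052). It was higher in the libraries labelled MRX-2843 tumor than in vehicle tumor by 1.92 ± 0.38 (adjusted p = 0.00051). The pseudogene H2-M6-ps had the same directions (-1.46 ± 0.55, adjusted p = 0.033, and 1.33 ± 0.55, adjusted p = 0.049). Its first call was lost without vehicle naive brain replicate 2 (-1.06, adjusted p = 0.22) or vehicle tumor replicate 2 (-1.07, adjusted p = 0.19). Its second call was lost without vehicle tumor replicate 2 (0.94, adjusted p = 0.25) or either MRX-2843 tumor replicate (adjusted p = 0.094 and 0.13), and under most other alternatives (adjusted p = 0.05 to 0.097).

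**Figure D2:**
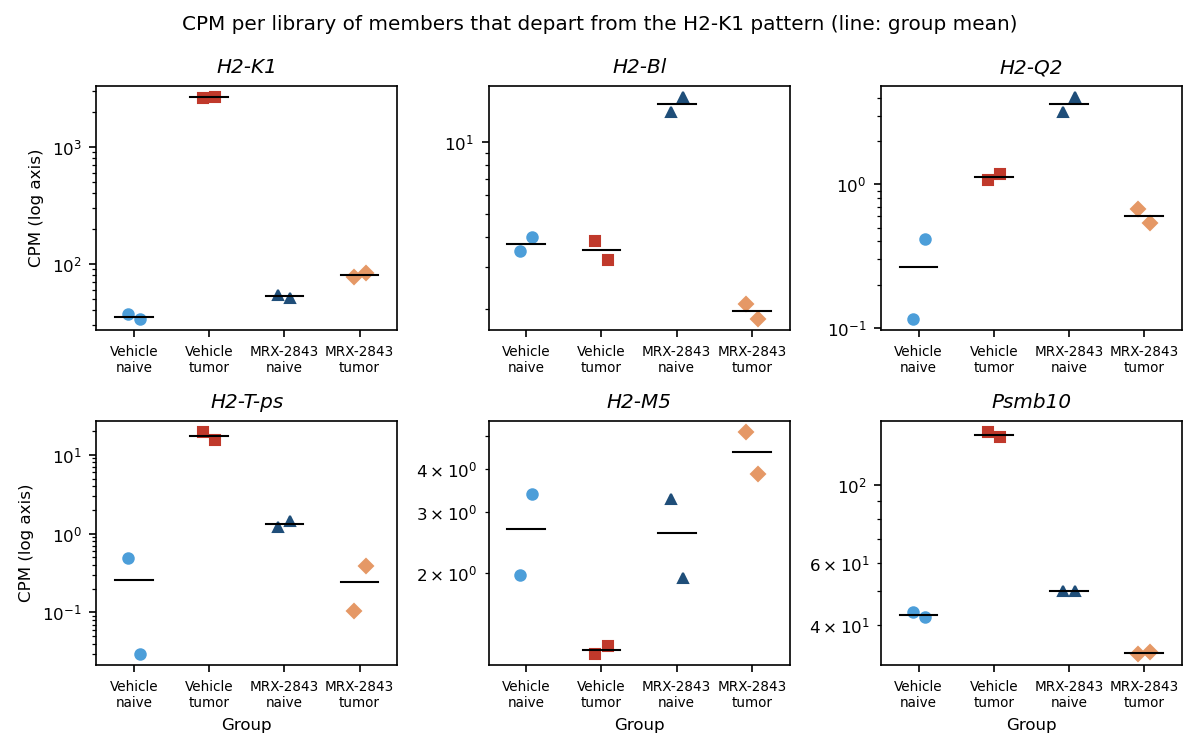
CPM per library (log axes, which differ between panels) in the 4 groups, with a line at each group mean, for H2-K1 and for 5 members that depart from it. H2-Bl and H2-Q2 are highest in MRX-2843 naive brain, H2-M5 is lowest in vehicle tumor, and H2-T-ps and Psmb10 are lower in the libraries labelled MRX-2843 tumor than in MRX-2843 naive brain.

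The remaining class Ib genes that passed the filter (H2-Q1, H2-Q10, H2-T10, H2-T24, H2-T3, H2-M3, H2-M10.2 and H2-M2) ranged in vehicle tumor from 0 CPM for 1 library of H2-M10.2 to 102 for H2-T10. H2-Q1, H2-Q10, H2-T10, H2-T24 and H2-M3 rose by 4.17 to 6.90 on the log2 scale there. H2-T3 (12 and 0 counts in vehicle naive brain, 101 and 51 in vehicle tumor) was called at adjusted p = 0.045, and H2-M10.2 had at most 26 counts in any library and no call. H2-M2 had 24 and 16 counts in vehicle tumor, 10 and 4 in the libraries labelled MRX-2843 tumor and 0 in the 4 naive brain libraries. It was called higher in vehicle tumor than in vehicle naive brain (adjusted p = 0.039), but passed the filter only through a group in which it was high.

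The class I partners were higher in vehicle tumor than in vehicle naive brain in 8 of 8 cases and lower in 8 of 8 in the libraries labelled MRX-2843 tumor than in vehicle tumor. B2m, the light chain shared by the class I heavy chains, was at 69.3 and 64.9 CPM in vehicle naive brain, 3328 and 3285 in vehicle tumor, 90.7 and 95 in MRX-2843 naive brain, with 129 and 123 in the libraries labelled MRX-2843 tumor. The groups did not overlap, and per kilobase of exon B2m was the most abundant member in each of them, with 3845 ± 35.4 CPM per kb (SD, n = 2) in vehicle tumor against 1287 ± 3.53 for H2-D1 and 902 ± 6.11 for H2-K1. The class I heavy chains summed per kilobase to 0.607 and 0.665 of B2m in vehicle naive brain, 0.905 and 0.917 in vehicle tumor, 0.797 and 0.707 in MRX-2843 naive brain, with 0.683 and 0.779 in the libraries labelled MRX-2843 tumor. Vehicle tumor had the highest ratio, above the 6 other libraries.

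Tap1 and Tap2 encode the subunits of the peptide transporter. Tap1 was at 3.52 and 4.01 CPM in vehicle naive brain, 256 and 258 in vehicle tumor, 5.68 and 5.2 in MRX-2843 naive brain, with 6.93 and 8.28 in the libraries labelled MRX-2843 tumor, a rise of 6.09 ± 0.10 on the log2 scale in vehicle tumor (adjusted p = 6.2e-16). Tap2 was at 5.04 and 5.62, 91.6 and 92.9, 5.72 and 8.23, and 6.35 and 7.35 CPM, a rise of 4.11 ± 0.15 (adjusted p = 3.9e-12). The balance between the subunits therefore differed, with Tap2 over Tap1 per kilobase at 2.07 and 2.03 in vehicle naive brain, 0.519 and 0.523 in vehicle tumor, 1.46 and 2.29 in MRX-2843 naive brain, with 1.33 and 1.29 in the libraries labelled MRX-2843 tumor.

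Tapbp (tapasin), which holds the empty class I molecule at the transporter, was at 26 and 25, 598 and 573, 31.8 and 28.3, and 29.1 and 28.4 CPM in the 4 groups. It rose by 4.52 ± 0.07 in vehicle tumor and did not differ detectably between the MRX-2843 groups (-0.06 ± 0.07, adjusted p = 0.62). Its slight excess in MRX-2843 over vehicle naive brain (0.23 ± 0.07, adjusted p = 0.024) was lost without either vehicle naive brain replicate (adjusted p = 0.058 and 0.16) or without MRX-2843 naive brain replicate 1 (adjusted p = 0.2). Erap1, the aminopeptidase that trims peptides in the endoplasmic reticulum, went from 6.82 and 5.47 CPM in vehicle naive brain to 69.4 and 71 in vehicle tumor (3.51 ± 0.16, adjusted p = 3.1e-11), and stood at 4.75 to 6.68 CPM in the 4 MRX-2843 libraries. Erap1 was not called in MRX-2843 against vehicle naive brain or between the MRX-2843 groups.

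Psmb8, Psmb9 and Psmb10 encode the catalytic subunits that replace Psmb5, Psmb6 and Psmb7 in the immunoproteasome. Psmb8 was at 3.14 and 2.1 CPM in vehicle naive brain, 145 and 139 in vehicle tumor, 3.32 and 4.6 in MRX-2843 naive brain, with 6.06 and 4.91 in the libraries labelled MRX-2843 tumor. Psmb9 was at 2.41 and 3.25, 118 and 118, 2.91 and 2.77, and 4.89 and 4.16 CPM. Psmb10 started from a much higher level in naive brain, at 43.4 and 42 CPM, and reached 141 and 136 in vehicle tumor, with 49.9 in both MRX-2843 naive brain libraries and 33.1 and 33.6 in the libraries labelled MRX-2843 tumor.

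The rises in vehicle tumor were 5.76 ± 0.18 for Psmb8, 5.38 ± 0.14 for Psmb9 and 1.70 ± 0.07 for Psmb10 on the log2 scale. Psmb10 was the only partner below MRX-2843 naive brain by the test in the libraries labelled MRX-2843 tumor (-0.58 ± 0.07, adjusted p = 1.6e-05), in which Psmb9 was higher (0.68 ± 0.14, adjusted p = 0.0028). In MRX-2843 over vehicle naive brain, Psmb8 (0.63 ± 0.19, adjusted p = 0.024) lost the call without vehicle naive brain replicate 2 (adjusted p = 0.24) or MRX-2843 naive brain replicate 2 (adjusted p = 0.35). Psmb10 (0.23 ± 0.07, adjusted p = 0.024) lost it without any single one of the 4 naive brain libraries (adjusted p = 0.08 to 0.18).

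Set against their constitutive counterparts per kilobase, the induced subunits shifted by different amounts. Psmb8 over Psmb5 was 0.017 and 0.0105 in vehicle naive brain, 0.85 and 0.852 in vehicle tumor, 0.0181 and 0.026 in MRX-2843 naive brain, with 0.0515 and 0.0379 in the libraries labelled MRX-2843 tumor. Psmb9 over Psmb6 was 0.0136 and 0.0179, 0.551 and 0.556, 0.0142 in both, and 0.0321 and 0.0265 in the same order. Psmb10 over Psmb7 was above 1 in all 8 libraries, at 1.83 and 1.88, 5.23 and 4.99, 2.69 and 2.46, and 2.02 and 2.46. The constitutive subunits themselves changed less, Psmb5 by -0.20, Psmb6 by 0.25 and Psmb7 by 0.23 on the log2 scale in vehicle tumor against vehicle naive brain.

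**Figure D3:**
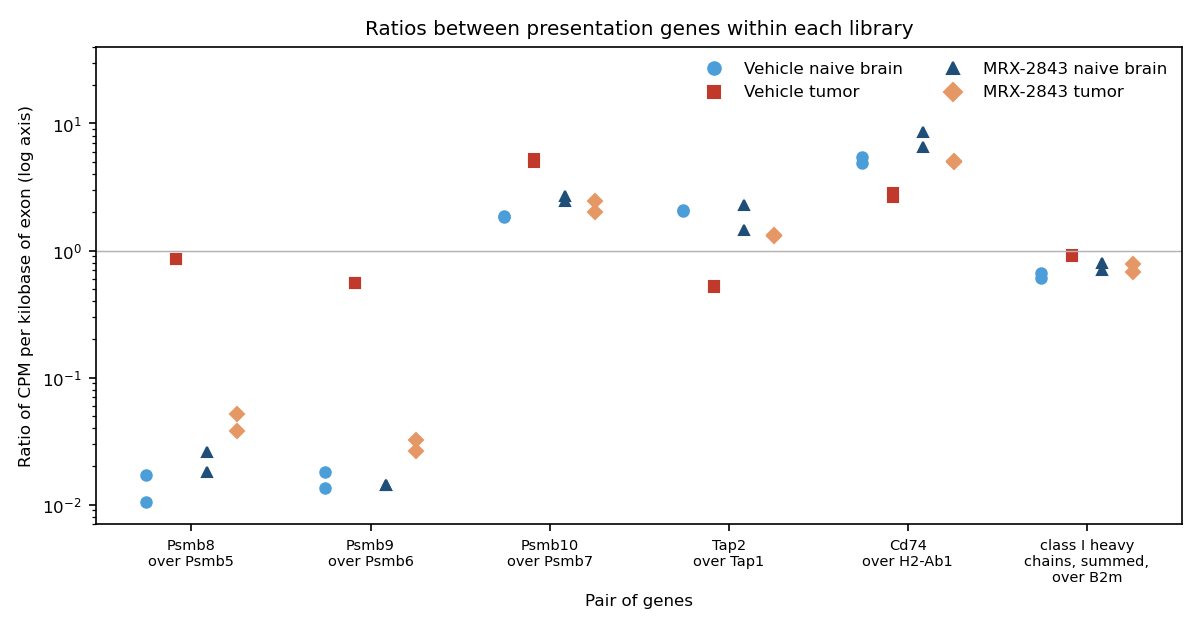
Ratios of CPM per kilobase of exon between 2 genes of the same library (log axis), with 1 symbol per library and a line at 1. Psmb8 over Psmb5 and Psmb9 over Psmb6 are highest in vehicle tumor (0.85 and 0.551 in replicate 1) and at most 0.0515 elsewhere, while Tap2 over Tap1 is lowest in vehicle tumor.

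The class II chains were low in vehicle naive brain and showed a graded order over the 4 groups. H2-Ab1, the beta chain of the I-A molecule, was at 1.06 and 1.64 CPM in vehicle naive brain, 2.75 and 3.13 in MRX-2843 naive brain, 9.7 and 10.5 in the libraries labelled MRX-2843 tumor, and 193 and 181 in vehicle tumor. H2-Aa, its alpha chain, was at 1 and 1.85, 4.02 and 1.87, 9.11 and 8.26, and 126 and 136 CPM in that order. H2-Eb1, the beta chain of I-E, was at 1.21 and 1.13, 3.2 and 2.32, 8.6 and 8.7, and 121 and 122 CPM. Except for 1 MRX-2843 naive brain library of H2-Aa, which at 1.87 CPM lay next to a vehicle one, the groups were well apart.

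H2-Ab1 rose by 7.12 ± 0.14 on the log2 scale in vehicle tumor (139-fold, adjusted p = 3e-15), H2-Eb1 by 6.70 ± 0.15 and H2-Aa by 6.52 ± 0.27. The libraries labelled MRX-2843 tumor were above MRX-2843 naive brain by 1.76 ± 0.13 for H2-Ab1 (3.39-fold, adjusted p = 2.3e-07), 1.69 ± 0.13 for H2-Eb1 (adjusted p = 4.2e-07) and 1.67 ± 0.25 for H2-Aa (adjusted p = 0.00019). H2-K1 and H2-D1 differed by 0.61 and 0.66 in that comparison. MRX-2843 naive brain was above vehicle naive brain by 1.15 ± 0.17 for H2-Ab1 (adjusted p = 0.00013) and 1.19 ± 0.17 for H2-Eb1 (adjusted p = 9e-05). For H2-Aa the same difference (0.94 ± 0.31, adjusted p = 0.042) was lost without vehicle naive brain replicate 1 (0.56, adjusted p = 0.29) or MRX-2843 naive brain replicate 1 (0.40, adjusted p = 0.3), and also without the libraries labelled MRX-2843 tumor (adjusted p = 0.085).

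H2-Eb2 was sparse, with 10 and 0 counts in vehicle naive brain, 118 and 30 in vehicle tumor, 0 in both MRX-2843 naive brain libraries and 8 in each library labelled MRX-2843 tumor. No difference passed the test (adjusted p = 0.06 for vehicle tumor against vehicle naive brain). A count of 0 allows up to 3 counts in a library, which is 0.0281 to 0.0615 CPM over the 8 libraries, counting error only.

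Cd74 encodes the invariant chain, which blocks the class II groove until the molecule reaches the endosome. Per kilobase it was the most abundant class II gene in every group but vehicle naive brain, where H2-DMa was higher. In CPM without regard to length, H2-DMa was above Cd74 in MRX-2843 naive brain as well (means of 16.6 and 14.4). Cd74 was at 3.8 and 5.2 CPM in vehicle naive brain, 15.5 and 13.3 in MRX-2843 naive brain, 32.1 and 34.2 in the libraries labelled MRX-2843 tumor, and 333 and 339 in vehicle tumor. The 4 groups did not overlap. It was 74.7-fold higher in vehicle tumor than in vehicle naive brain (6.22 ± 0.12, adjusted p = 2.2e-15), 3.18-fold higher in naive brain under MRX-2843 than under vehicle (1.67 ± 0.12, adjusted p = 1e-07), and 2.32-fold higher in the libraries labelled MRX-2843 tumor than in MRX-2843 naive brain (1.22 ± 0.10, adjusted p = 7.6e-07). Cd74 over H2-Ab1 per kilobase was 5.48 and 4.85 in vehicle naive brain, 2.64 and 2.86 in vehicle tumor, 8.62 and 6.51 in MRX-2843 naive brain, with 5.06 and 4.98 in the libraries labelled MRX-2843 tumor.

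The editors of class II peptides were higher in vehicle tumor than in vehicle naive brain in 5 of 5 cases. H2-DMa, the alpha chain of the H2-DM exchange factor, was well detected in naive brain, at 21.2 and 16.7 CPM, and reached 72.7 and 72 in vehicle tumor (1.93 ± 0.11, adjusted p = 6.4e-10). It was at 16.5 and 16.7 CPM in MRX-2843 naive brain, with 21.2 and 22.7 in the libraries labelled MRX-2843 tumor. Its beta chain H2-DMb1 went from 2.31 and 2.2 to 45.9 and 47.1 CPM (4.36 ± 0.22, adjusted p = 1.3e-10), and stood at 2.34 to 4.99 CPM in the 4 MRX-2843 libraries. The second beta chain gene H2-DMb2 went from 0.502 and 0.775 to 8.72 and 10.9 CPM (3.94 ± 0.41, adjusted p = 7.2e-07), and H2-DMb1 and H2-DMb2 share 11.3% and 10.3% of their 100-base stretches. The 1 difference between the MRX-2843 groups that passed among these genes, H2-DMa (0.41 ± 0.11, adjusted p = 0.015), was lost without MRX-2843 tumor replicate 2 (0.36, adjusted p = 0.068).

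H2-Oa and H2-Ob form H2-O, an inhibitor of H2-DM found mainly in B cells. H2-Oa was at 0.0861 and 0.179 CPM in vehicle naive brain, 2.99 and 2.88 in vehicle tumor, 0.574 and 0.722 in MRX-2843 naive brain, with 0.58 and 0.843 in the libraries labelled MRX-2843 tumor. H2-Ob was at 0.545 and 0.209, 8.33 and 7.24, 0.574 and 0.946, and 0.738 and 0.371 CPM. Both rose in vehicle tumor (4.46 ± 0.61, adjusted p = 1.4e-05, and 4.36 ± 0.51, adjusted p = 2.4e-06). The rise of H2-Oa was 5.07 without vehicle naive brain replicate 2, and that of H2-Ob 5.21 without replicate 1. The higher H2-Oa of MRX-2843 than of vehicle naive brain (2.29 ± 0.59, adjusted p = 0.011) was lost without vehicle naive brain replicate 1 (1.86, adjusted p = 0.099) and was 2.89 without replicate 2.

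The regulators differed from each other in size of change. Nlrc5, the transactivator of class I genes, was at 1.15 and 1.07 CPM in vehicle naive brain, 81 and 80.7 in vehicle tumor, 1.95 and 2.55 in MRX-2843 naive brain, with 6.1 and 4.69 in the libraries labelled MRX-2843 tumor. It rose 72.7-fold in vehicle tumor (6.18 ± 0.18, adjusted p = 1.5e-13) and was 2.34-fold higher in the libraries labelled MRX-2843 tumor than in MRX-2843 naive brain (1.23 ± 0.16, adjusted p = 5.1e-05). Ciita, the transactivator of class II genes, was at 1.46 and 1.1, 6.29 and 6.26, 1.21 and 1.42, and 1.79 and 1.94 CPM in the same order of groups. It rose 4.88-fold in vehicle tumor (2.29 ± 0.32, adjusted p = 1.9e-05), and its values in the MRX-2843 groups did not overlap but did not pass the test (0.50 ± 0.32, adjusted p = 0.32).

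Among the other H2- genes, H2-K2, a pseudogene next to H2-K1, was at 1.51 and 2.79 CPM in vehicle naive brain, against 8.86 and 6.92 in vehicle tumor (1.88 ± 0.32, adjusted p = 0.00014), with 1.97 to 2.67 in the 4 MRX-2843 libraries. H2-Ke6 had 7 to 43 counts per library and no call, and 61.6% of its 100-base stretches also lie in an overlapping gene model.

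**Figure D4:**
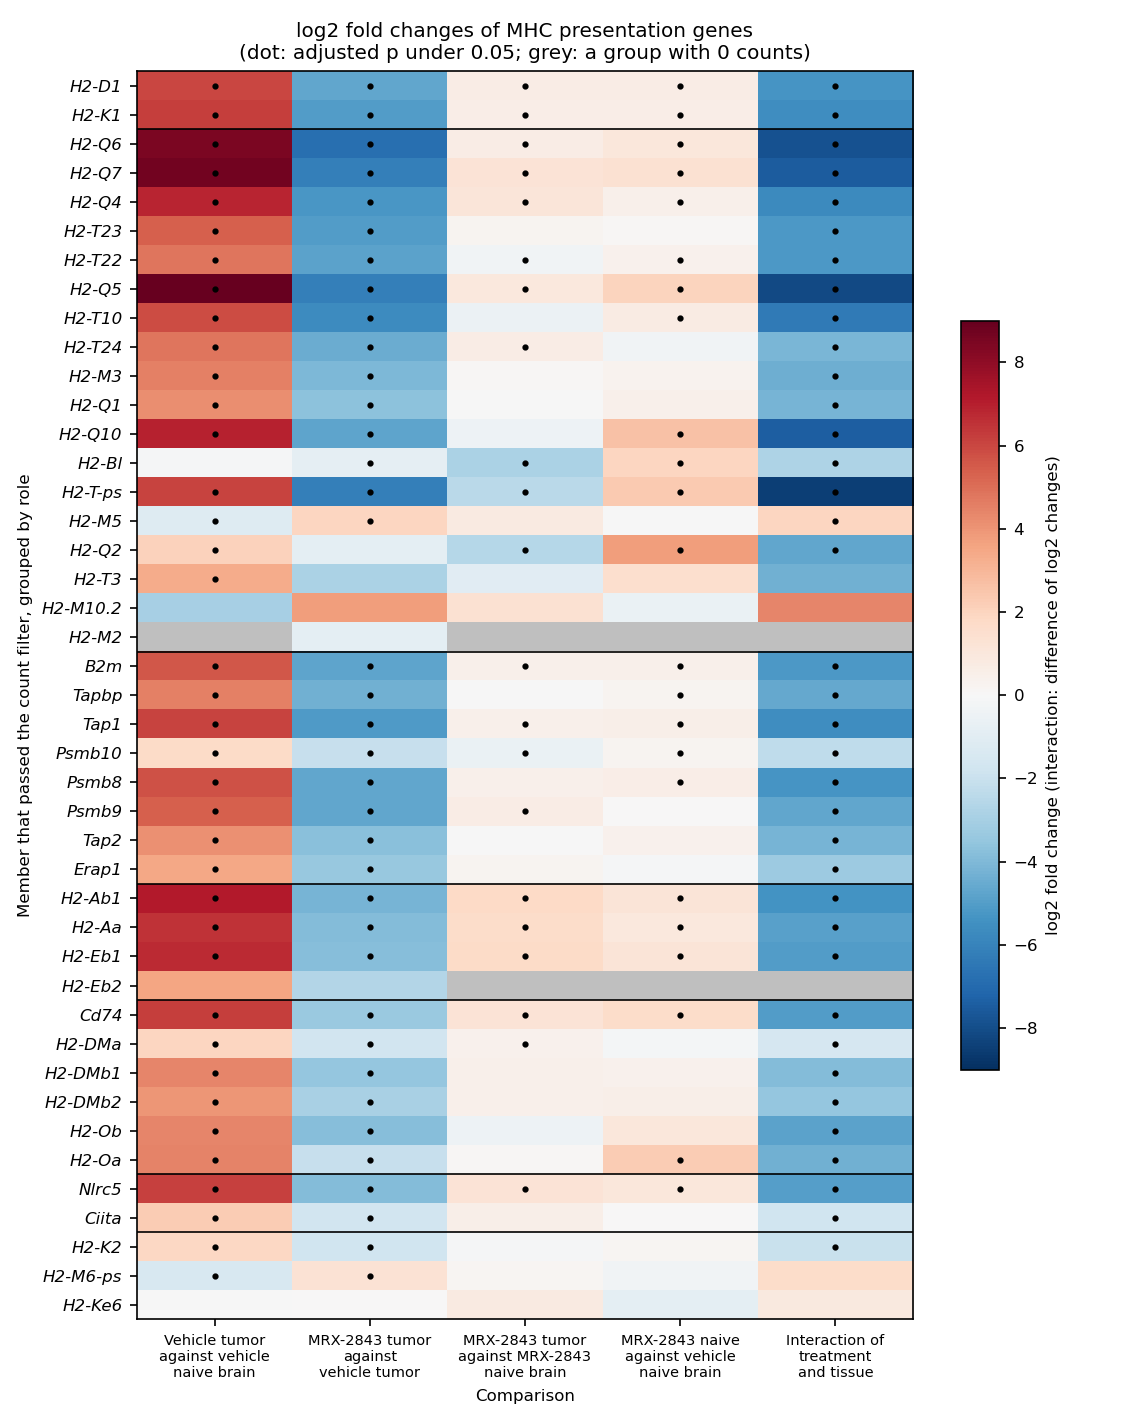
log2 fold changes (color) of the 43 members tested, in rows grouped by role, in the 4 comparisons and the interaction, in columns. Dots mark adjusted p under 0.05 and grey cells a group with 0 counts. Of the 37 members called higher in the first comparison, all but H2-M2, which is grey, are red in the first column. The second column is blue for 35 called members. H2-Bl, H2-Q2 and H2-T-ps are blue between the MRX-2843 groups and red in MRX-2843 against vehicle naive brain.

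Of the 43 members tested, 37 lie at chr17:33915899-37483552 (GRCm38), from the first to the last member on that chromosome, among 156 other tested genes of that stretch. In vehicle tumor against vehicle naive brain 61.5% of those neighbours were called, with 67 higher and 29 lower and a median log2 fold change of 0.62, against 89.2% and a median of 4.83 for the members there. In MRX-2843 against vehicle naive brain the figures were 18.6% with 13 higher and 16 lower for the neighbours, 51.4% for the members and 21.5% for all genes tested.

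Other genes of the pathway were read from fixed lists. Of all genes tested, 29.3% were higher and 30.8% lower in vehicle tumor than in vehicle naive brain. Of 10 peptide supply and class I loading genes, 9 were higher and 1 lower in vehicle tumor than in vehicle naive brain. Psme1 and Psme2, subunits of the proteasome activator PA28, rose by 2.09 and 2.67 on the log2 scale, and the chaperone Calr by 1.89, from 269 ± 11.9 to 997 ± 10 CPM (SD, n = 2). In the libraries labelled MRX-2843 tumor 8 of the 10 were lower than in MRX-2843 naive brain and 0 higher. Of all genes tested, 11.9% were lower and 12.4% higher in that comparison. The log2 fold changes there were -0.97 for Psme1 and -0.55 for Psme2. All 6 class II peptide supply genes were higher in vehicle tumor, among them the endosomal protease Ctss (53.5 ± 1.47 to 1201 ± 0.835 CPM, log2 fold change 4.49) and the thiol reductase Ifi30 (3.34 ± 0.284 to 83.3 ± 0.796 CPM, 4.64).

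Of 9 genes for transcription factors of MHC genes, 6 were higher and 2 lower in vehicle tumor than in vehicle naive brain. The shares over all genes tested were 29.3% higher and 30.8% lower. Irf1, a target as well as a carrier of interferon signals, rose from 5.82 ± 1.05 to 117 ± 0.354 CPM (SD, n = 2, log2 fold change 4.33). The Y box binding subunits moved in different directions, Nfya by 1.25, Nfyc by 0.48 and Nfyb by -1.02. Of 5 genes of interferon gamma and its receptor, 4 were higher, with Ifngr1 at 14.1 ± 0.0925 against 117 ± 10.1 CPM. Ifng itself had 14 counts in each vehicle tumor library and 0 in the 6 others, and did not pass the test (adjusted p = 0.087).

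Of 4 MHC-like genes outside the H2- set, all 4 were higher in vehicle tumor, among them Fcgrt, the neonatal Fc receptor (22.9 ± 2.29 to 510 ± 7.99 CPM, log2 fold change 4.48), and Hfe, an iron regulator (4.53 ± 0.356 to 71.7 ± 1.11 CPM, 3.98). Of 8 genes for receptors that bind MHC molecules, 7 were higher and 0 lower, with 29.3% of all genes higher and 30.8% lower. Lag3, a class II receptor also made by microglia, went from 7.3 ± 0.345 to 98.8 ± 1.47 CPM, and Klrc1 had 120 and 68 counts in vehicle tumor and 0 in the 6 others. The exception was Cd4, the co-receptor for class II, at 2.85 ± 0.328 CPM in vehicle naive brain, 2.37 ± 0.243 in vehicle tumor, 16.5 ± 0.66 in MRX-2843 naive brain and 28.3 ± 3.06 in the libraries labelled MRX-2843 tumor. It was higher in naive brain under MRX-2843 than under vehicle by 2.53 (adjusted p = 4e-08).

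Markers of cell types that carry MHC molecules were mostly higher in vehicle tumor, as the members were, and differed among themselves between the other groups. The 10 microglia and macrophage markers summed to 250 to 253 CPM in vehicle naive brain, 2002 to 2035 in vehicle tumor, 262 to 266 in MRX-2843 naive brain and 335 to 336 in the libraries labelled MRX-2843 tumor. All 10 were higher in vehicle tumor than in vehicle naive brain, from 1.09 for P2ry12 to 4.58 for Ptprc on the log2 scale. In the libraries labelled MRX-2843 tumor 6 of the 10 were higher and 0 lower than in MRX-2843 naive brain, with 12.4% of all genes higher and 11.9% lower. In MRX-2843 against vehicle naive brain 3 were higher and 0 lower (Aif1, Ptprc and Tyrobp), with 9.78% of all genes higher and 11.7% lower.

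The 8 dendritic cell markers summed to 39.6 to 43.4, 133 to 147, 38.3 to 38.6 and 40.3 to 42.5 CPM in naive brain and tumor under vehicle, MRX-2843 naive brain and the libraries labelled MRX-2843 tumor. In vehicle tumor against vehicle naive brain 4 were higher and 2 lower, with 29.3% of all genes higher and 30.8% lower. Siglech (14.6 CPM in vehicle naive brain, 86.9 in vehicle tumor) and Itgax (0.325 and 26.9) made up most of the vehicle tumor sum. The rise of the sum lay almost wholly in these genes, so it does not speak for the list as a whole. Xcr1, Clec9a and Cd209a were at 4.29, 3.75 and 1.41 CPM in vehicle tumor. Batf3 was at 3.42 CPM in vehicle naive brain and 3.28 in vehicle tumor. Zbtb46 (log2 fold change -0.49) and Flt3 (-1.18) were the 2 lower markers. In naive brain under MRX-2843 against vehicle 1 of the 8 markers was higher and 2 lower, with 9.78% of all genes higher and 11.7% lower. Between the MRX-2843 groups 3 were higher and 1 lower, with 12.4% of all genes higher and 11.9% lower. Counts this small cannot be told from those shares. The 6 T and NK cell markers summed to 17.1 to 17.5 CPM in vehicle tumor and 0.105 to 0.697 in the other groups. Cd3d had 168 and 142 counts in vehicle tumor, 0 in vehicle naive brain, 6 and 12 in MRX-2843 naive brain and 0 in the libraries labelled MRX-2843 tumor. The 5 B cell markers summed to 5.24 to 6.59 CPM in vehicle tumor and 0.236 to 1.42 elsewhere, and Ms4a1 was at 0 outside vehicle tumor. Between the MRX-2843 groups 0 T and NK cell markers were higher and 2 lower, and 0 B cell markers were higher and 1 lower, while in MRX-2843 against vehicle naive brain 1 T and NK cell marker was higher and 0 lower, and 0 B cell markers were called.

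Endothelial markers, 5 in number, summed to 481 to 497 CPM in vehicle tumor and 86.6 to 100 elsewhere. The 5 neuron markers summed to 354 to 359 CPM in vehicle tumor, 4114 to 4213 in vehicle naive brain, 2402 to 2425 in MRX-2843 naive brain and 2189 to 2236 in the libraries labelled MRX-2843 tumor. The 5 oligodendrocyte markers were at 416 to 434, 6286 to 6353, 6263 to 6339 and 11604 to 12019 CPM in the same groups. Among the neuron markers, Rbfox3 made up most of the vehicle tumor sum and changed little (232 CPM in vehicle naive brain, 207 in vehicle tumor, log2 fold change -0.17). The other neuron markers fell there by -2.56 (Tubb3) to -5.62 (Snap25) on the log2 scale. Counts of mitochondrially encoded genes took 3.26% and 3.37% of the libraries in vehicle tumor and 14.7% to 18.5% in the others. The part of these cell types, of mitochondrial RNA and of the sex-linked difference in the levels of the presentation genes was not tested.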

How the data were processed

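RNA from 8 libraries in 4 groups of 2 was measured as read counts per gene. The deposited table holds raw, whole-number counts, and the submitters' processing notes name as tools featureCounts, Subread, SAMtools and STAR 2.7.7a, and hg38 with mm10 as builds, without role or order. Strand setting, annotation and the treatment of reads with several matches are not given in the sources used here. Groups were taken from the sample labels. The members, the gene lists and the tests were chosen with earlier results of these data known.

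Counts were fitted in R 4.3.3 with edgeR 4.0.16: TMM scaling, filterByExpr by group with a minimum count of 10, a quasi-likelihood fit of 4 group means over all 8 libraries (residual degrees of freedom 4, biological coefficient of variation 21% in common), and Benjamini-Hochberg adjustment over the 24356 genes tested of 55414, at 0.05. The 5 tests compared tissues under each treatment, treatments in each tissue, and the interaction. CPM uses TMM-scaled totals. Each standard error was derived from the fitted log2 fold change and the square root of its F statistic. The script was tested on simulated counts. Replicates varied 8.41 to 10.5 times as much as counting alone gives, so no library was counted as a copy of another.

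Members of the classical, partner, class II chain, class II loading and regulator groups that passed the filter were described in full, with the 6 class Ib and 2 other genes of highest mean CPM and any member called against most of its group. Exon lengths, positions and shared 100-base stretches came from GENCODE M21 on GRCm38, in which all 56 members were matched without version number. The length of a gene was the union of all its annotated exons, and values per kilobase compared between genes depend on it. Promoters came from RefSeq (GRCm38.p6). Alternatives were DESeq2 1.42.0 (test and size factors), library totals, no filter or a stricter filter, a replicate block, only the groups compared, a minimum fold, and leaving out each library. Leaving out the MRX-2843 tumor or the MRX-2843 naive brain libraries was added after the data were seen. Same-numbered libraries were not treated as pairs. Python 3.11.15 with pandas 2.3.3, NumPy 2.4.6 and matplotlib 3.10.9 was used for tables and plots.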

Additional observations from a re-analysis of the deposited data

Results flagged for a closer look

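The tumor against naive brain difference itself differed between treatments, by the interaction test, for 37 members. For the most abundant member of each role group the interaction, as the tumor against naive log2 fold change in MRX-2843 minus that in vehicle, was -5.34 for H2-D1, -7.85 for H2-Q6, -5.19 for B2m, -5.35 for H2-Ab1, -5.01 for Cd74, -4.96 for Nlrc5 and -1.99 for H2-K2. The largest adjusted p among these 7 was 0.002, for H2-K2. The tumor against naive comparison in MRX-2843 rests on libraries whose overall expression resembled naive brain. Groups of 2 libraries are too small for a test for single outlying libraries.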

How the results depend on the processing

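With scaling by library totals the all-gene median log2 fold change in vehicle tumor against vehicle naive brain moved from -0.03 to 0.21, and the genes called there went from 7125 higher and 7501 lower to 8684 higher and 6192 lower. The members called there went from 37 higher and 2 lower to 38 higher and 0 lower, with H2-M5 and H2-M6-ps no longer called. Over all alternatives other than leaving out a library, the members called were 37 to 40 in vehicle tumor against vehicle naive brain, 36 to 39 in the libraries labelled MRX-2843 tumor against vehicle tumor, and 37 to 38 for the interaction. Leaving out 1 library gave 35 to 39, 36 to 37 and 37 to 38. Between the MRX-2843 groups, leaving out 1 library gave 19 to 24 called members against 21, and a minimum absolute log2 fold change of 1 gave 10 (7 higher, 3 lower). In MRX-2843 against vehicle naive brain, leaving out 1 library gave 19 to 24 against 23, a fit of only the groups compared gave 12 of 41 tested, and a minimum absolute log2 fold change of 1 gave 12. Without the libraries labelled MRX-2843 tumor, 22 members were called in that comparison and 39 in vehicle tumor against vehicle naive brain.

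With a replicate block the calls were 38, 36, 21, 24 and 38 in vehicle tumor against vehicle naive brain, MRX-2843 tumor against vehicle tumor, MRX-2843 tumor against MRX-2843 naive brain, MRX-2843 against vehicle naive brain, and the interaction. Deviations of same-numbered libraries from their group means correlated at -0.0902 to 0.0695 over 12636 genes. An effect common to both libraries of a group cancels in these deviations, so they cannot tell whether groups share animals.

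Of 1821 recomputed values for single members, 1753 kept direction and side of the threshold, 65 lost the call and 3 changed sign. The sign changes were all of H2-K2, which was not called there: leaving out 1 library gave -0.30 to 0.07 between the MRX-2843 groups (0.02 without MRX-2843 naive brain replicate 1) and -0.19 to 0.70 in MRX-2843 against vehicle naive brain. The cause was not tested. Of the members with few counts, H2-Eb2 and H2-M10.2 had no call in any comparison. H2-T3 (adjusted p = 0.045) and H2-M2 (adjusted p = 0.039) were called higher in vehicle tumor than in vehicle naive brain.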
